A study of Mus musculus with 10 samples.

Results

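Chromatin accessibility was compared between group 2 innate lymphoid cells (ILC2s) of the lung and of the large intestine (LI). The comparison took 4 of the 10 libraries of the study, 2 from lung and 2 from LI, and covered 49981 of the 50039 open chromatin regions in the table of counts, leaving out the 58 regions without a count in any library. No region was chosen by its values. At an adjusted p-value under 0.05, 1359 regions were more accessible in lung ILC2s and 4088 in LI ILC2s. These are called lung-higher and LI-higher regions here. ATAC-seq was run on ILC2s of 5 tissues (bone marrow, LI, lung, pancreas and small intestine), all from male wild-type C57BL/6 mice aged 6 weeks, with 50000 sorted cells in each library. Each library pooled cells of several mice (10 to 16, with more mice for lung than for LI). Lung and LI ILC2s were sorted with the same gate, as lineage-negative cells with CD45, CD127, ST2 and CD25 on their surface. Lung tissue was digested for 1 h, whereas the LI was stripped of epithelium with DTT and EDTA and digested for 1.5 h, so that tissue and isolation cannot be told apart.

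ILC2s are tissue-resident lymphocytes without antigen receptors that depend on the transcription factor GATA3 and answer alarmins such as IL-33 with type 2 cytokines. In the lung they are known for their part in allergic inflammation and repair, and in the gut for defence against worms. In ATAC-seq the Tn5 transposase inserts adapters into open chromatin, so that the reads at a region measure its accessibility, and most regions that tell closely related cells apart lie outside promoters, at putative enhancers.

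The sequences of 9 regions are shown because they bear the short motifs that the shares of motifs below turn on, or lie at the loci with the largest differences. They were chosen after their values were seen. Each is the central 300 bases of its region, from the RefSeq GRCm38.p6 assembly (mm10) on the plus strand. Capitals mark 3 short motifs on either strand, which are the site bound by AP-1 factors (TGACTCA), a SMAD-binding element (its letters GTCTGG) and the site of GATA factors (with letters AGATAA). A match is a description of the letters and not evidence of binding. The first 4 regions were higher in lung. They lay upstream of the IL-33 receptor gene Il1rl1 (chr1:40421198-40421497), in an intron of Poc1b with Galnt4 as the nearest start site (chr10:99170778-99171077), 139 kb from Tcim (chr8:24299859-24300158) and upstream of Zcchc14 (chr8:121685260-121685559).
Il1rl1: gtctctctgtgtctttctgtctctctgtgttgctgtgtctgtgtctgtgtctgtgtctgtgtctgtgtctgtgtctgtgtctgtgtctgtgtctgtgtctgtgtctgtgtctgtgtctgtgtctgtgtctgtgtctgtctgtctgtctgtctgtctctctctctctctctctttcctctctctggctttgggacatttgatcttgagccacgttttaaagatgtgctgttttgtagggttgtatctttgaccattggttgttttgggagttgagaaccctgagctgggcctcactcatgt
Galnt4: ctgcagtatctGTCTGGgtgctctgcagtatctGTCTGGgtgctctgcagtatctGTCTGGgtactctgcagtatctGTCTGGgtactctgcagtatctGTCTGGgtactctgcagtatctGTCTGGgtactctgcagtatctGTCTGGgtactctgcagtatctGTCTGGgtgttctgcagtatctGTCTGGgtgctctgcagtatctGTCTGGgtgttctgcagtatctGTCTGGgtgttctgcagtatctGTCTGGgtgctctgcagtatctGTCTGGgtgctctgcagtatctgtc
Tcim: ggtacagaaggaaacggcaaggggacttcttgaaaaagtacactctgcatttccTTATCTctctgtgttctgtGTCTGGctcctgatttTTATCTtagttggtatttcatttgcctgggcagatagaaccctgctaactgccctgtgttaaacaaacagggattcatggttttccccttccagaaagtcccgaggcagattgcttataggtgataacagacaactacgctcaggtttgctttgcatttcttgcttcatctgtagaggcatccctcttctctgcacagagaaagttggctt
Zcchc14: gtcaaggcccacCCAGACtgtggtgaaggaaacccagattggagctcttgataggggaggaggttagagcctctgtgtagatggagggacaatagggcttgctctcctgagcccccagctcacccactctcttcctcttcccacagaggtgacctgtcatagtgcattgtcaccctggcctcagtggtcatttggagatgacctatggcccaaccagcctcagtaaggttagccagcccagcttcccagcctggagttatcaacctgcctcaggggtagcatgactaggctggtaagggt
The Il1rl1 window is largely a simple repeat of gtctgt units with no match of these motifs, and 54.8% of the region is marked as repeat. The Galnt4 window is a tandem array with 13 SMAD matches, although 0.0% of that region is marked as repeat. The Tcim window holds 1 SMAD and 2 GATA matches and the Zcchc14 window 1 SMAD match.

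The other 5 regions were higher in LI. They lay 102 kb from Gata3 (chr2:9776032-9776331), 75.2 kb upstream of Ctla4 (chr1:60833640-60833939), in intron 2 of Ahr (chr12:35520523-35520822), 18.3 kb upstream of Ahr (chr12:35553181-35553480) and upstream of Nckap5 (chr1:126862826-126863125).
Gata3: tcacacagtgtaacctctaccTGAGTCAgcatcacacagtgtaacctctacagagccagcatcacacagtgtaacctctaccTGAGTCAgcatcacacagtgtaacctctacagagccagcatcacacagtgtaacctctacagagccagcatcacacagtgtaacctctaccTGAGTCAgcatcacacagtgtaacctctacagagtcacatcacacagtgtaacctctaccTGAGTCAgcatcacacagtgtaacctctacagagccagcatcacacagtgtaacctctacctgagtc
Ctla4: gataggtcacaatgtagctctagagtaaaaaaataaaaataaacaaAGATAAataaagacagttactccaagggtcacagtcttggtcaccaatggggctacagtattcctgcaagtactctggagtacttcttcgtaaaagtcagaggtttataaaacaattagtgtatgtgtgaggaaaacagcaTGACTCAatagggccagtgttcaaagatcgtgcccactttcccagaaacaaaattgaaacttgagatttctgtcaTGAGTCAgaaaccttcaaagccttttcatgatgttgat
Ahr intron 2: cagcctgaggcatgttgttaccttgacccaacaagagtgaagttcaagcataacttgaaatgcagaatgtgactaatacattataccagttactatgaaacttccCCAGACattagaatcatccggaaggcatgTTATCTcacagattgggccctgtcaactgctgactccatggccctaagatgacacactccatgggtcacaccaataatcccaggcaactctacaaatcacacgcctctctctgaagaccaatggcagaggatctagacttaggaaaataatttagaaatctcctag
Ahr upstream: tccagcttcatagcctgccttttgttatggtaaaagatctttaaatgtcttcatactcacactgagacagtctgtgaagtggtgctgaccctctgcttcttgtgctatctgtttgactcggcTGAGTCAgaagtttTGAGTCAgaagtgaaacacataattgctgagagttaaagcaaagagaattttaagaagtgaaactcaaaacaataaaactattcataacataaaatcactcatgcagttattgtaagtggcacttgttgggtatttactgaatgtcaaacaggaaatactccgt
Nckap5: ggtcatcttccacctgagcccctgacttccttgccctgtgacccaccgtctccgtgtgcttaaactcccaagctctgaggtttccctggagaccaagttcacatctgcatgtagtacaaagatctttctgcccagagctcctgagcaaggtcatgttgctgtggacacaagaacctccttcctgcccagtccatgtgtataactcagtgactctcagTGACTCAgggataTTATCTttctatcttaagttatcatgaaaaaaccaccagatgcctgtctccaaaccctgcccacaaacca
The Gata3 window is also a tandem array, with 4 AP-1 matches. The Ctla4 window holds 2 AP-1 matches and 1 GATA match, and the upstream Ahr window 2 AP-1 matches. The Ahr intron 2 window holds no AP-1 match, but 1 SMAD and 1 GATA match. In the Nckap5 window an AP-1 and a GATA match lie 6 bases apart. In tandem arrays and simple repeats the placing of reads depends on how well short reads map there, which was not tested.

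Counts in regions summed to 22993276 and 32797872 in the lung libraries and to 13290901 and 23133684 in the LI libraries. Of these counts, the 72 regions with a mean above 200 CPM (counts per 1000000 counts of the scaled library) took 11.4% and 10.4% in lung and 34.9% and 21.5% in LI, and 24 of the 72 were LI-higher. The median share of repeat in them was 79.5%. All 12 ILC2 marker genes had a tested promoter region, and their summed level was 435 and 478 CPM in lung and 358 and 455 CPM in LI. T cell promoters (3 of 8 genes) summed to 17.0 and 12.8 CPM in lung and 10.4 and 17.4 CPM in LI, those of myeloid cells (2 of 8) to 17.3 to 23.1 CPM and that of fibroblasts (1 of 6) to 13.7 to 17.9 CPM. Of the defining genes of T cells, B cells and NK cells, Cd3d, Cd4, Cd8a, Pax5, Eomes and Tbx21 had no promoter region. The B cell promoters (2 of 7 genes) summed to at most 11.1 CPM and the promoter of Prf1, the only one of 6 genes marking NK cells and ILC1s, read 2.67 and 0.994 CPM in lung against 6.89 and 7.56 CPM in LI and was LI-higher, as were 4 of the 19 regions of that list. The ILC3 list had no promoter region and 2 of its 6 regions were LI-higher. The endothelial list and that of mast cells, basophils and eosinophils had no promoter region either, with 5 LI-higher and 1 lung-higher of 17 regions in the former and 1 lung-higher of 6 in the latter. The pan-epithelial promoters (3 of 5 genes) summed to 9.94 to 12.8 CPM. Promoters of intestinal epithelial genes (1 of 7) stayed at or under 1.48 CPM, and those of lung epithelial genes (1 of 6) read 21.7 and 28.6 CPM in lung and 18.1 and 16.5 CPM in LI, with no promoter region for Sftpc or Scgb1a1. The part of other cells in the differences was not tested, and in bulk libraries a smaller share of a cell type and less signal per cell cannot be told apart.

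Under the main scaling (TMM), LI-higher regions outnumbered lung-higher ones and differed by more. By edgeR's quasi-likelihood test with Benjamini-Hochberg adjustment, 2.72% of regions were lung-higher and 8.18% LI-higher, a split of 24.9% to 75.1%. The median absolute log2 fold change was 1.18 in the lung-higher and 1.58 in the LI-higher regions, and it exceeded 2 in 119 and 1192 of them. Both lung libraries lay above both LI libraries in 1359 of 1359 lung-higher regions, and both LI libraries lay above both lung libraries in 4072 of the 4088 LI-higher regions. Over all 49981 regions, called or not, the libraries separated in these ways in 14477 and 15045. The lung-higher regions had a median level of 17.2 CPM in lung and 7.18 CPM in LI, and the LI-higher regions 2.62 CPM in lung and 8.08 CPM in LI. Over all tested regions the medians were 7.01 CPM in lung and 7.77 CPM in LI. In LI, both sets thus lay near the median of all regions.

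The split between directions moved with the scaling of the libraries. The sizes of the called differences in the 2 directions were compared under the main scaling only. The log2 fold change followed GC content, with a median of −0.23 in the quartile of regions with the lowest GC content and 0.18 in the quartile with the highest, and it followed the mean level in the same way, from −0.29 to 0.18. When libraries were scaled by their size only, the median over all regions shifted from −0.01 to 0.24 and the counts became 3401 lung-higher and 2781 LI-higher, a split of 55.0% to 45.0%. Removing the trends with GC content and width gave 2439 and 2857 regions (46.1% to 53.9%), and removing the trend with mean level gave 2012 and 3140 (39.1% to 60.9%). Fits on the 4 libraries alone gave 3121 and 5456 regions by edgeR (36.4% to 63.6%) and 2793 and 4818 by DESeq2 (36.7% to 63.3%). Without lung replicate 2, the deepest library, 279 and 978 regions were called, the fewest of the 4 fits with a library left out. The p-values measure the spread between libraries, each of them a pool of mice.

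Promoters took a smaller share of the called than of the tested regions, but for lung this turned with the setting. A promoter here is the stretch between 1000 bp before and 100 bp after a transcription start site (TSS), and 9456 tested regions (18.9%) were promoters, against 9.42% of the lung-higher and 4.38% of the LI-higher regions. Of the promoters, 1.35% were lung-higher and 1.89% LI-higher. The corresponding shares were 3.13% and 8.53% of the 24029 intragenic regions and 2.91% and 11.3% of the 16496 intergenic regions. Regions over 100 kb from a TSS were 7.29% of those tested, 8.46% of the lung-higher and 14.5% of the LI-higher regions. Median distance to the TSS was 11020 bp over all regions, 15030 bp in the lung-higher and 26430 bp in the LI-higher regions. The median log2 fold change was 0.17 at promoters, −0.055 within genes and −0.14 between genes, and 0.095, 0.08 and 0.066 after the trends with GC content and width were removed. With library size alone, 697 promoters were lung-higher and 102 LI-higher, in place of 128 and 179. Lung-higher promoters were then 697 of 3401 lung-higher regions, and they were 809 of 3121 by edgeR and 715 of 2793 by DESeq2 on the 4 libraries, shares above the 18.9% of promoters among tested regions.

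**Figure D1:**
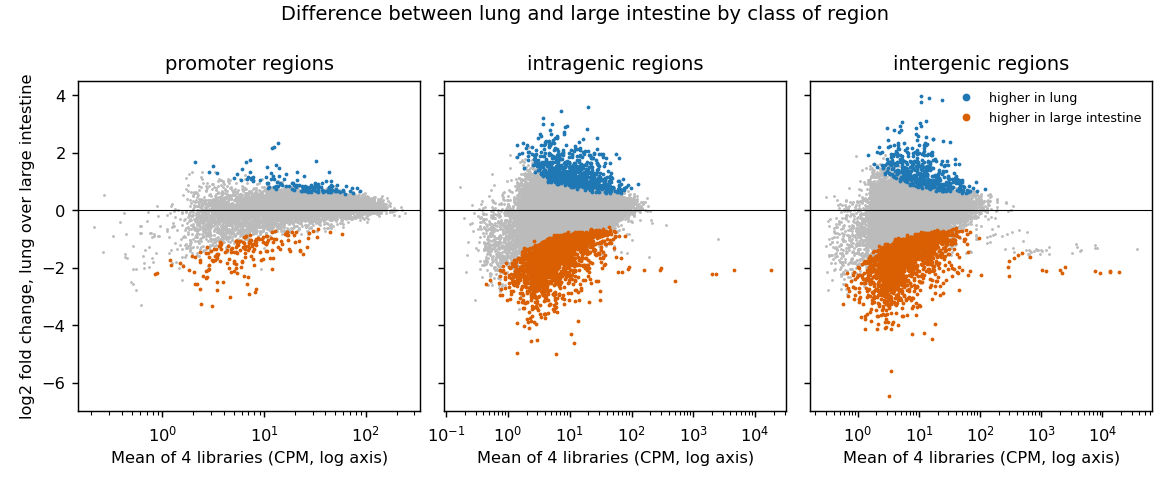
Log2 fold change of each tested region (lung over LI) against its mean level in CPM on a log axis over the 4 libraries, by class, with called regions in colour. Promoters spread least around 0 (128 lung-higher and 179 LI-higher of 9456), and LI-higher regions reached further from 0 than lung-higher ones outside promoters.

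The lung-higher regions with the largest differences lay in intergenic or intronic sequence. Genes are named by the nearest TSS, which is a convention and does not show the gene a region acts on. The largest difference was at chromosome 10, 128984649 to 128985311, 4.93 kb from Olfr9, an olfactory receptor gene, where the lung libraries had 17.5 and 22.4 CPM and the LI libraries 1.31 and 1.22 CPM (log2 fold change 3.99, SE 0.36, adjusted p = 2.33e-05). The region with Gm14616 as its nearest gene read 43.0 and 45.7 CPM in lung and 3.05 and 3.13 CPM in LI, with hardly any spread within either tissue (3.84, SE 0.25, adjusted p = 1.08e-06). At the Galnt4 array the levels were 25.6 and 48.1 CPM in lung against 3.57 and 2.61 CPM in LI (3.60, SE 0.37, adjusted p = 6.48e-05). Tcim, a small regulator of transcription in immune and tumour cells, had 22.2 and 24.4 CPM in lung and 3.23 and 2.35 CPM in LI at its distant region (3.09, SE 0.32, adjusted p = 7.76e-05). That both lung libraries lie above both LI libraries in these regions was required by the rule that named them. The other regions among the 8 with the largest differences were nearest to Mtpap, Il1rl1, Platr10 and Gm16158, with log2 fold changes of 3.21 to 3.90.

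**Figure D2:**
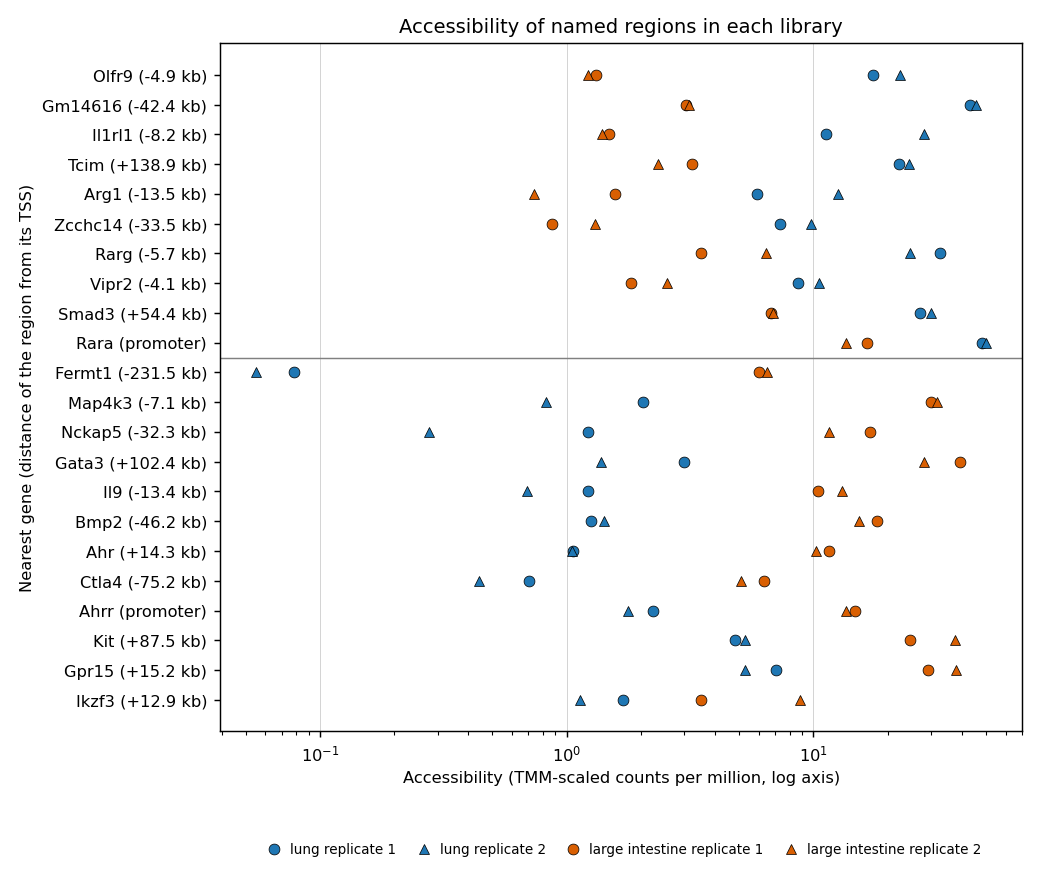
Level of 22 named regions in CPM on a log axis, with 1 point for each lung and LI library, and the nearest gene with the distance from its TSS beside it. The regions were chosen as called or as separated between the tissues, so that the gap in each row follows from the choice. Levels run from 0.0552 CPM (lung at Fermt1) to 50.0 CPM (lung at Rara).

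The LI-higher regions with the largest differences were almost closed in lung. The largest lay 232 kb from Fermt1 on chromosome 2, with 0.0784 and 0.0552 CPM in lung and 6.01 and 6.47 CPM in LI. Only 2 reads fell there in each lung library, and the ratio of LI to lung was 97.6 with an exact counting interval of 37.6 to 361. An intergenic region 7.07 kb upstream of Map4k3, a kinase of the stress and mTORC1 pathways, had 2.04 and 0.828 CPM in lung and 29.9 and 31.6 CPM in LI (log2 fold change −4.46, SE 0.34, adjusted p = 6.34e-06). The first intron of the sodium channel gene Scn8a held a region with 0.666 and 1.30 CPM in lung and 27.4 and 12.7 CPM in LI (−4.30, SE 0.45, adjusted p = 8.24e-05), so that the LI libraries differed by more from each other than at Map4k3 but stayed above lung. The 1700021L23Rik, Stard6 and Rad51b regions differed by −5.60 to −4.51. At 1700021L23Rik the lung libraries held 6 and 2 reads, and the ratio of LI to lung was 50.6 (exact counting interval 25.2 to 119). PCR reads are not independent molecules, so these intervals cover counting error only.

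At promoters the largest differences were smaller. Adgrf5, an adhesion G protein-coupled receptor, had 22.9 and 22.6 CPM in lung against 3.66 and 5.17 CPM in LI at its promoter (log2 fold change 2.34, SE 0.28, adjusted p = 0.000123). Shld1, a subunit of the shieldin complex of DNA end protection, had a log2 fold change of 2.21 and 9230112J17Rik, a long noncoding RNA gene, one of 2.17. On the LI side the promoter of Ahrr, the repressor of the aryl hydrocarbon receptor, read 2.23 and 1.77 CPM in lung and 14.8 and 13.5 CPM in LI (−2.83, SE 0.32, adjusted p = 9.03e-05), with nearly equal libraries within each tissue. The promoters of LOC115489488 (−3.33) and Wdfy4 (−3.01), a factor of cross-presentation, were less even. At Wdfy4 the LI libraries had 11.9 and 4.52 CPM, and neither of these calls held without lung replicate 2 or without LI replicate 1.

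Receptors of the alarmins and growth factors of ILC2s went both ways. Il1rl1 encodes ST2, the IL-33 receptor by which both tissues were sorted, and 11 of its 19 regions were lung-higher, over 68.6 kb from 49.1 kb upstream into the gene. Both of its promoters were among them, and the other 8 regions had log2 fold changes of 0.17 to 0.84. The upstream promoter had 15.1 and 24.1 CPM in lung against 5.67 and 7.39 CPM in LI (log2 fold change 1.57, SE 0.33, adjusted p = 0.00565), and the inner one 9.25 and 12.5 CPM against 4.71 and 4.95 CPM (1.17, SE 0.35, adjusted p = 0.0426). The repeat-rich region 8.22 kb upstream differed most, with 11.2 and 28.1 CPM in lung and 1.48 and 1.39 CPM in LI (3.78, SE 0.47, adjusted p = 0.000167). Lung lay above LI in both libraries in all of these, as in all 1359 lung-higher regions. The lung libraries themselves differed by more than the LI libraries did. Il10ra, a chain of the IL-10 receptor, had 4 lung-higher regions of 10, the strongest in an intron with 51.8 and 38.3 CPM in lung and 9.50 and 11.2 CPM in LI (2.11, SE 0.25, adjusted p = 0.000111). Il2ra, which encodes CD25 of the sorting gate, had 1 lung-higher region of 13.

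Kit, Il1r1 and Il7r were open more widely in LI. Kit encodes the stem cell factor receptor, and 5 of its 23 regions were LI-higher, led by a region 87.5 kb downstream of its TSS with 4.82 and 5.27 CPM in lung and 24.6 and 37.3 CPM in LI (log2 fold change −2.62, SE 0.31, adjusted p = 0.000124). Il1r1, the receptor of IL-1, was LI-higher at 3 of 5 regions including its promoter, which had 3.80 and 3.95 CPM in lung and 9.59 and 10.5 CPM in LI (−1.37, SE 0.29, adjusted p = 0.00579). Il7r, which encodes CD127 of the gate, was LI-higher at 3 of 16 regions (−1.62 to −1.10). Il17rb, the IL-25 receptor, had 1 LI-higher region of 2. Over the 28 cytokine receptor genes with a region, 20 of 200 regions (10.0%) were lung-higher and 15 (7.5%, near the 8.18% over all regions) LI-higher. The median log2 fold change of the list was 0.11 against −0.01 over all regions. Il1rl1 alone gave 11 of the 20. With library size alone the list had 37 lung-higher and 11 LI-higher regions, and 36 and 9 after the trends with GC content and width were removed.

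Genes of the retinoid and TGF-beta pathways carried more lung-higher regions. Retinoic acid acts through nuclear receptors of the RAR and RXR families, and TGF-beta through receptor kinases and SMAD factors. Of 107 regions at 14 retinoid genes, 14 (13.1%) were lung-higher and 4 (3.74%) LI-higher, and of 174 regions at 27 TGF-beta and SMAD genes, 19 (10.9%) were lung-higher and 6 (3.45%) LI-higher, with medians of 0.19 and 0.20. The order of the counts held with library size alone (22 and 2, and 43 and 5) and with the GC trends removed (16 and 4, and 24 and 5). Rara, a retinoic acid receptor, had 7 lung-higher regions of 16, including a promoter with 48.4 and 50.0 CPM in lung and 16.5 and 13.6 CPM in LI (log2 fold change 1.72, SE 0.21, adjusted p = 0.000145). Rarg, its relative, had 3 of 5, led by a region 5.73 kb upstream with 32.7 and 24.5 CPM in lung and 3.49 and 6.43 CPM in LI (2.49, SE 0.31, adjusted p = 0.000164). At both of these regions each lung library exceeded each LI library, which held in all 1359 lung-higher regions. Dhrs3, which reduces retinaldehyde, added 3 and Rxra 1, while the LI-higher regions lay at Hic1 (2), Ncoa2 and Rarb.

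Within the TGF-beta list, Pmepa1, a feedback inhibitor of SMAD signalling, had 5 lung-higher regions of 10 and Ski, a SMAD corepressor, 4 of 10. The region 30.9 kb upstream of Pmepa1 had 21.8 and 29.3 CPM in lung and 6.97 and 6.60 CPM in LI (log2 fold change 1.92, SE 0.25, adjusted p = 0.000253). Both regions of Tgfb1, the ligand, were lung-higher by small amounts, its promoter with 60.6 and 65.2 CPM in lung and 37.4 and 41.1 CPM in LI (0.68, SE 0.21, adjusted p = 0.0437). Introns of Smad3, with 27.1 and 29.9 CPM in lung against 6.71 and 6.86 CPM in LI (2.07, SE 0.26, adjusted p = 0.000164), and of Tgfbr2, with 21.6 and 30.3 CPM against 5.93 and 6.73 CPM (2.03, SE 0.25, adjusted p = 0.000167), held the largest lung-higher differences of the list. The tissues did not overlap in these regions, as in all 1359 lung-higher regions. Tgfbr1, the type I receptor, went the other way at 2 of 11 regions. The one 6.17 kb upstream had the largest difference of the list in either direction. It read 0.627 and 0.221 CPM in lung and 5.14 and 2.78 CPM in LI (−3.24, SE 0.80, adjusted p = 0.0145). The other lay in the intron of a neighbouring gene with 9.33 and 10.8 CPM in lung and 38.6 and 32.5 CPM in LI (−1.82, SE 0.22, adjusted p = 0.00014). Tgfb3 had 1 LI-higher region (−2.33, SE 0.61, adjusted p = 0.0215), as had Smad1, Acvr2a and Smad3. Smad7, an inhibitory SMAD, had 1 lung-higher region of 10, and its promoter, at 41.7 and 48.1 CPM in lung and 35.8 and 41.1 CPM in LI, did not pass (0.22, SE 0.23, adjusted p = 0.599). The Smad7 call was lost after the GC trends were removed.

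The aryl hydrocarbon receptor (AHR) senses dietary and microbial ligands, and its targets include Cyp1a1 and Ahrr. Of 87 regions at 14 genes of the Ikaros family and the AHR pathway, 17 (19.5%) were LI-higher and 1 (1.15%) lung-higher, with a median log2 fold change of −0.42. The counts were 16 and 4 with library size alone and 14 and 4 with the GC trends removed. At Ahr, 7 of 21 regions were LI-higher, spread from 35.3 kb upstream to 54.1 kb downstream of its TSS, and the others had log2 fold changes of −0.85 to 0.28. The region in intron 2 had 1.06 and 1.05 CPM in lung and 11.6 and 10.2 CPM in LI (−3.36, SE 0.38, adjusted p = 8.86e-05), and the one 18.3 kb upstream 1.53 and 1.99 CPM in lung and 7.15 and 6.39 CPM in LI (−1.93, SE 0.36, adjusted p = 0.0027). The region at the Ahr TSS itself did not differ beyond its error, with 29.5 and 34.2 CPM in lung and 26.5 and 34.6 CPM in LI (0.06, SE 0.21, and −0.12 with the GC trends removed). The call 54.1 kb downstream was lost in 6 of 15 other settings.

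Promoters of the AHR target genes Cyp1a1, Nqo1, Cyp1b1 and Ahrr were LI-higher. Cyp1a1, a monooxygenase, had 2.59 and 2.04 CPM in lung and 12.0 and 11.2 CPM in LI (log2 fold change −2.33, SE 0.30, adjusted p = 0.000212). Nqo1, a quinone reductase, had 7.49 and 8.58 CPM in lung and 23.1 and 18.0 CPM in LI (−1.35, SE 0.26, adjusted p = 0.00358), and Cyp1b1 14.0 and 14.7 CPM against 33.8 and 26.4 CPM (−1.06, SE 0.23, adjusted p = 0.00654). Together with Ahrr, these promoters showed no overlap between the tissues. That adds nothing to the calls, since 4072 of the 4088 LI-higher regions separated in this way. Tiparp, another target, had 1 LI-higher region of 2, upstream of a promoter that did not pass. Ikzf3, which encodes Aiolos, had 2 LI-higher regions of 7, in introns 1 and 3. The call in intron 3 was lost with the GC trends removed and in 3 of the 4 fits with a library left out, and that in intron 1 without lung replicate 2 and without LI replicate 2. The region in intron 1 had 1.69 and 1.13 CPM in lung and 3.49 and 8.78 CPM in LI (−2.16, SE 0.45, adjusted p = 0.00529), with LI libraries that differed from each other by more than the lung libraries did. The Ikzf3 promoter had 20.5 and 22.0 CPM in lung and 16.6 and 19.6 CPM in LI (0.23, SE 0.23, adjusted p = 0.576), and Ikzf1, the gene of Ikaros, was called in both directions, at 2 LI-higher regions and 1 lung-higher region of 16.

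Effector genes of ILC2s divided by gene. Of 139 regions at 19 such genes, 14 (10.1%) were lung-higher and 16 (11.5%) LI-higher, and the order of the counts turned to 22 and 9 both with library size alone and with the GC trends removed. Arg1, the gene of arginase-1, was lung-higher at 4 of 16 regions, most at 13.5 kb upstream with 5.92 and 12.6 CPM in lung and 1.57 and 0.739 CPM in LI (log2 fold change 3.08, SE 0.56, adjusted p = 0.00205), a call that was lost without lung replicate 2. The Arg1 region 13.5 kb upstream is 68.8% repeat. Ccl1, a chemokine for CCR8, was lung-higher at 4 of 11 regions, its promoter with 34.6 and 34.9 CPM in lung and 11.1 and 18.8 CPM in LI (1.20, SE 0.25, adjusted p = 0.00527). Bmp7 added 3 and Il10 2 lung-higher regions. Bmp2, another bone morphogenetic protein, was LI-higher at 4 of 10 regions, at 1.25 and 1.41 CPM in lung and 18.1 and 15.3 CPM in LI in the region 46.2 kb upstream (−3.64, SE 0.35, adjusted p = 5.06e-05). A region 13.4 kb upstream of the cytokine gene Il9 had 1.22 and 0.690 CPM in lung and 10.4 and 13 CPM in LI (−3.65, SE 0.41, adjusted p = 8.86e-05).

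In the type 2 cytokine cluster on chromosome 11, Il13 was called in both directions. A region 3.59 kb downstream of the Il13 TSS had 19.9 and 29.8 CPM in lung and 7.06 and 5.56 CPM in LI (log2 fold change 1.99, SE 0.30, adjusted p = 0.000564), while one 16.5 kb upstream was LI-higher (−1.28, SE 0.39, adjusted p = 0.0442). Il4 was LI-higher at 2 of 4 regions, its promoter with 8.0 and 9.72 CPM in lung and 15.1 and 15.1 CPM in LI (−0.77, SE 0.24, adjusted p = 0.0471). The 5 Il5 regions had adjusted p-values of 0.101 to 0.901, and its promoter regions had 27.8 and 31.4 CPM in lung against 20.0 and 33.5 CPM in LI, and 4.63 and 7.51 CPM against 5.58 and 7.60 CPM, so that the tissues overlapped in both. Areg, the gene of amphiregulin, had 1 LI-higher region of 5, with 8.39 and 7.20 CPM in lung and 18.4 and 19.7 CPM in LI (−1.29, SE 0.30, adjusted p = 0.00974).

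Transcription factor genes of ILC2s had shares of calls near those over all regions. Of 415 regions at 28 genes, 45 (10.8%, against 8.18% over all) were LI-higher and 9 (2.17%, against 2.72%) lung-higher. The counts drew closer, to 31 and 26, with library size alone and to 33 and 24 with the GC trends removed, where the median log2 fold change of the list turned from −0.09 to 0.15 and 0.04. The region 102 kb downstream of Gata3, at the AP-1 array shown above, differed most, with 2.98 and 1.38 CPM in lung and 39.1 and 28.1 CPM in LI (−3.96, SE 0.34, adjusted p = 1.95e-05), and 2 of the 19 Gata3 regions were LI-higher in all. Runx3, a regulator of lymphocyte identity, was LI-higher at 6 of 21 regions. One was an almost closed site in intron 1 with 15 and 2 reads in lung. Its levels were 0.588 and 0.0552 CPM in lung, which differed widely, and 2.09 and 2.13 CPM in LI (−2.81, SE 0.73, adjusted p = 0.0194). The ratio of LI to lung there was 7.69. Its exact counting interval of 4.49 to 13.9 pools the libraries and leaves out the spread between them. Another was a broad region 40.3 kb upstream with 30.3 and 35.9 CPM in lung and 80.2 and 102 CPM in LI (−1.46, SE 0.21, adjusted p = 0.000377). Maf, which drives IL-10 and IL-4 in T cells, was LI-higher at 5 of 22 regions and Prdm1, the gene of Blimp-1, at 4 of 15, with log2 fold changes of −2.45 to −1.24 at Maf and −1.80 to −1.30 at Prdm1. Runx1 was LI-higher at 5 and lung-higher at 1 of 30.

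Checkpoint and costimulation genes were LI-higher at 23 of 156 regions (14.7%) and lung-higher at 5 (3.21%, near the 2.72% over all regions). The median log2 fold change of the list was −0.31. The order held at 15 and 6 with library size alone and 14 and 6 with the GC trends removed. Ctla4 and Icos lie side by side on chromosome 1 and had 2 LI-higher regions each. Those of Ctla4, an inhibitory receptor, included the region 75.2 kb upstream with 0.706 and 0.442 CPM in lung and 6.28 and 5.08 CPM in LI (−3.31, SE 0.58, adjusted p = 0.00178). Icos, a costimulatory receptor of ILC2s, had 1.14 and 0.718 CPM in lung and 9.33 and 6.65 CPM in LI at 59.9 kb downstream of its TSS (−3.11, SE 0.46, adjusted p = 0.00048). Both regions had lung libraries near 1 CPM, and the lack of overlap with LI was common to 4072 of the 4088 LI-higher regions. Tigit, another inhibitory receptor, was LI-higher at 3 of 12 regions. Tnfsf8, the CD30 ligand, went the other way at 3 of 7 regions (1.15 to 1.58).

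Pdcd1, the gene of PD-1, was lung-higher at an intron 1 region with 27.2 and 46.4 CPM in lung and 9.41 and 11.3 CPM in LI (log2 fold change 1.82, SE 0.32, adjusted p = 0.00175), while its other 7 regions, the promoter among them, did not pass. The Pdcd1 promoter had 10.4 and 13.3 CPM in lung and 7.85 and 12.3 CPM in LI, which overlap. Klrk1, the gene of the activating receptor NKG2D, was LI-higher at both of its regions, its promoter with 12.7 and 11.6 CPM in lung and 18.0 and 26.2 CPM in LI (−0.87, SE 0.24, adjusted p = 0.0273), but both calls were lost with library size alone and with the GC trends removed. The 4 regions of Tnfrsf9, the gene of 4-1BB, had adjusted p-values of 0.912 to 0.974, and its promoter had 25.6 and 27.8 CPM in lung and 24.0 and 30.5 CPM in LI. At Lgals1, the gene of galectin-1, the adjusted p-values of 3 regions were 0.0666 to 0.879. The lowest was that of a region 2.95 kb from its TSS with 31.8 and 30.4 CPM in lung and 16.0 and 19.9 CPM in LI (0.79, SE 0.26, adjusted p = 0.0666).

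Among signal-dependent factors, NF-kappaB genes were LI-higher at 23 of 159 regions (14.5%) and lung-higher at 3 (1.89%), but 15 of the 23 belonged to Nfkbiz, an atypical IkappaB protein, and the list's median was 0.02. Genes of interferon regulatory factors and STATs were LI-higher at 15 of 150 regions (10.0%, near the 8.18% over all regions) and lung-higher at 2 (1.33%), with 4 of the LI-higher ones at Socs1, an inhibitor of cytokine signalling, and 1 or 2 at each other gene. Under library size alone these counts were 14 and 8 for NF-kappaB and 7 and 4 for the interferon and STAT list. AP-1 and activation-induced genes had 11 (5.58%) in each direction of 197 regions, but 21 lung-higher and 7 LI-higher with library size alone and 14 and 8 with the GC trends removed. Within that list Jun, an AP-1 subunit, was LI-higher at 4 of 9 regions. A region in the 3′ UTR of Jun had 13.9 and 14.6 CPM in lung and 54.0 and 45.0 CPM in LI (log2 fold change −1.79, SE 0.38, adjusted p = 0.00568), while Ier2, Egr1, Egr3 and Crem held 9 of the 11 lung-higher regions.

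Genes of homing and residency had 14 lung-higher (6.09%) and 19 LI-higher (8.26%, near the 8.18% over all regions) regions of 230. That order turned to 28 and 11 with library size alone and 30 and 11 with the GC trends removed. Gpr15, a receptor for homing to the large bowel, was LI-higher at 3 of 4 regions, led by one with 7.06 and 5.30 CPM in lung and 29.0 and 37.8 CPM in LI (log2 fold change −2.44, SE 0.30, adjusted p = 0.000146). Itga4, an integrin chain of gut homing, was LI-higher at 6 and lung-higher at 2 of 28 regions. The larger of the lung-higher differences, at 9.68 and 21.3 CPM in lung and 2.44 and 1.91 CPM in LI (2.86, SE 0.45, adjusted p = 0.000801), lay in a region that is 84.2% repeat. Nrp1, a coreceptor for semaphorins and VEGF, was lung-higher at 4 of 22 regions towards or beyond the end of the gene, for example with 15.8 and 23.2 CPM in lung and 7.06 and 7.39 CPM in LI in intron 12 (1.43, SE 0.30, adjusted p = 0.0052). All 4 Nrp1 calls were lost without lung replicate 2. The Nrp1 promoter had 20.3 and 22.2 CPM in lung and 14.8 and 12.6 CPM in LI, a difference that did not pass (0.63, SE 0.26, adjusted p = 0.127).

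Receptors for neural signals separated by gene. Ramp1 and Calcrl together form the receptor for calcitonin gene-related peptide, and Vipr2 binds vasoactive intestinal peptide. Ramp1 was lung-higher at 4 of 10 regions, one with 40.3 and 42.9 CPM in lung and 11.9 and 12.9 CPM in LI (log2 fold change 1.74, SE 0.21, adjusted p = 0.000117), Calcrl at 2 of 9 and Vipr2 at 3 of 12. Ret, the receptor of glial-derived neurotrophic ligands, was LI-higher at 4 of 5 regions, its 5′ UTR with 15.4 and 11.5 CPM in lung and 32.3 and 30.3 CPM in LI (−1.22, SE 0.28, adjusted p = 0.00957). The list had 10 lung-higher (11.1%) and 8 LI-higher (8.89%, near the 8.18% over all regions) regions of 90. The counts were 18 and 5 with library size alone and 16 and 7 with the GC trends removed. Of the genes for lipid mediators and lipid metabolism, Alox5, the 5-lipoxygenase of leukotriene synthesis, was lung-higher at 4 of 10 regions (1.26 to 1.66) and its partner Alox5ap at 1 of 3. That list had 10 lung-higher (6.71%) and 6 LI-higher (4.03%) regions of 149, and 18 and 4 under either of these settings. Integrin ligand, matrix and cytoskeleton genes had 16 lung-higher (8.65%) and 11 LI-higher (5.95%) regions of 185. The counts were 26 and 4 with library size alone and 23 and 5 with the GC trends removed. Galectin, S100 and annexin genes had 2 (2.56%) in each direction of 78, against 2.72% lung-higher and 8.18% LI-higher over all regions. With library size alone they had 9 lung-higher and 2 LI-higher regions.

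**Figure D3:**
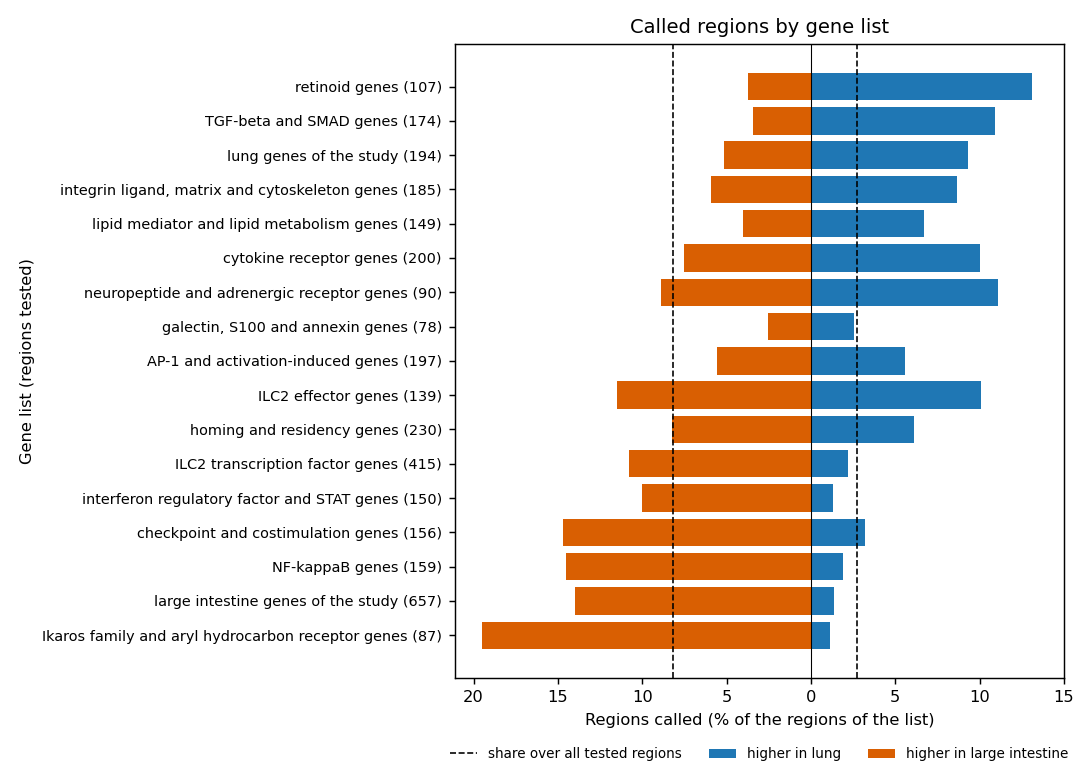
Share of the regions of each gene list that were lung-higher or LI-higher, in percent, with dashed lines at the shares over all regions (2.72% and 8.18%). The retinoid list has the highest lung-higher share (13.1%) and the list of the Ikaros family and AHR genes the highest LI-higher share (19.5%).

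Some loci differed along most of their regions. Among genes with at least 5 regions, Ldlrad4, an inhibitor of TGF-beta signalling, had the most lung-higher regions (12 of 32), followed by Il1rl1 (11 of 19), 0610040F04Rik (10 of 45, mostly within Itpr1), Rara (7 of 16), Zcchc14 (6 of 9) and Ext1 (6 of 20). At Zcchc14 the 6 regions differed by 1.96 to 2.93 on the log2 scale, and the region 1.06 kb upstream of its TSS had 24.8 and 28.3 CPM in lung and 6.45 and 6.56 CPM in LI. The genes with the most LI-higher regions were Pde4b, a phosphodiesterase that degrades cyclic AMP (16 of 28, with 1 in the other direction), Map4k3 (15 of 16), Rad51b (15 of 23), Nfkbiz (15 of 27, with 1 in the other direction), Nckap5 (12 of 15) and Ston2 (12 of 16). At Map4k3 the promoter was the region that did not pass, with 22.2 and 16.5 CPM in lung and 23.1 and 23.2 CPM in LI, while the 15 others differed by −4.46 to −1.52 over 131 kb. At Nckap5 the 12 regions differed by −4.32 to −1.86 over 155 kb, and the region 32.3 kb upstream had 1.22 and 0.276 CPM in lung and 17.0 and 11.6 CPM in LI. After the GC trends were removed, the calls numbered 14 at Map4k3, 12 at Nckap5, 13 at Pde4b and at Nfkbiz, 12 at Rad51b and 9 at Ston2 in the same direction, and 15 at Il1rl1 and 7 at Zcchc14.

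**Figure D4:**
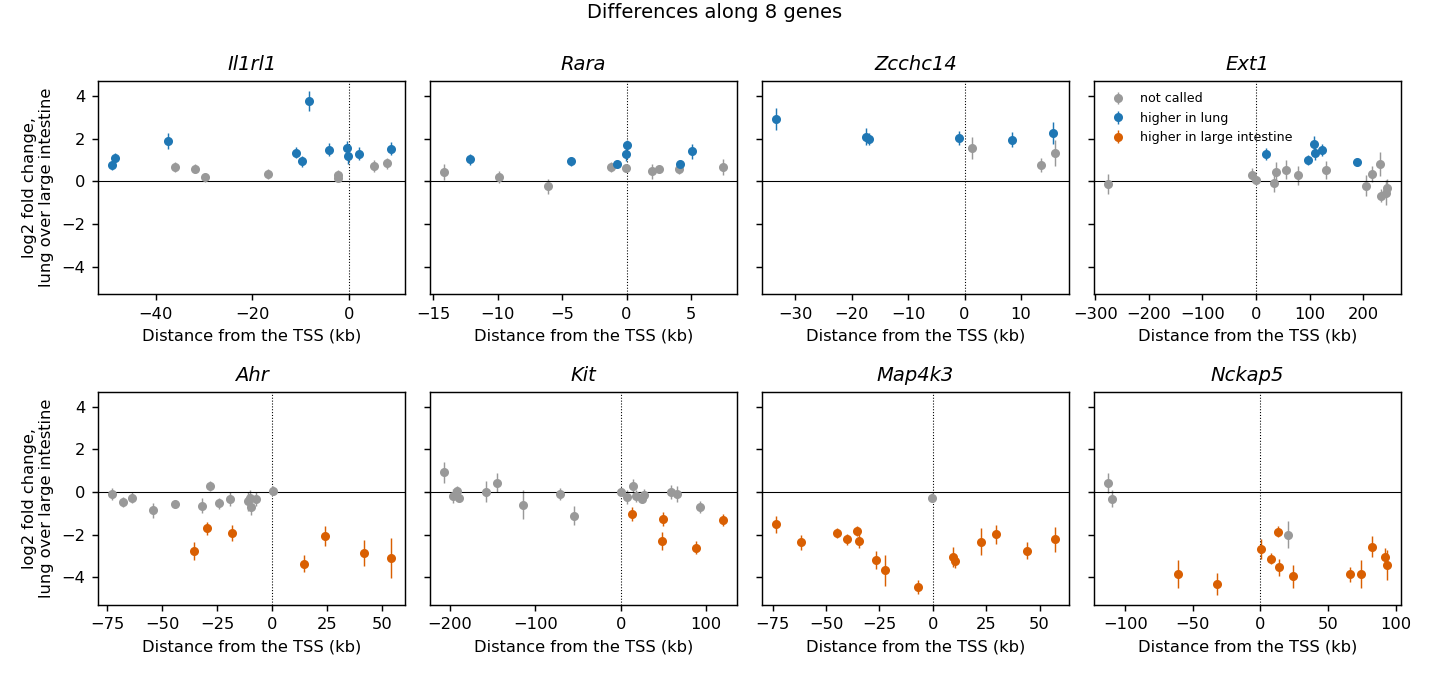
Log2 fold change (lung over LI) of each region at 8 genes against its distance from the TSS in kb, with bars for its SE and called regions in colour. At Il1rl1 (11 of 19) and Zcchc14 (6 of 9) the called points lie above 0, and at Map4k3 (15 of 16) and Nckap5 (12 of 15) below 0.

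The study listed genes with higher mRNA in lung or in LI ILC2s by single-cell RNA sequencing of other cells of these tissues, and their nearest regions were counted here. The lists were chosen on mRNA and not on these libraries. At 80 genes of the LI list with a region, 92 of 657 regions (14.0%) were LI-higher and 9 (1.37%) lung-higher, and at 28 genes of the lung list 18 of 194 (9.28%) were lung-higher and 10 (5.15%) LI-higher, with medians of −0.15 and 0.14. The order held with library size alone (66 and 16, and 32 and 8) and with the GC trends removed (66 and 17, and 25 and 7), but the median of the LI list became 0.09 with library size alone and −0.00 with the GC trends removed. In the LI list Pde4b, Nfkbiz and Pde10a (7 of 8) gave 38 of the 92. The lung list was led by Ccl1 and Nrp1 with 4 lung-higher regions each, and by Camk2n1 and Rcc2 with 3 each, whereas Btg1 and Frmd4b had 3 LI-higher regions each.

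Short motifs were counted in the central 300 bases of regions outside promoters, which were 1231 lung-higher, 3909 LI-higher and 40525 in all. The AP-1 letters TGACTCA stood in 32.3% of LI-higher, 16.2% of lung-higher and 17.3% of all regions. The SMAD letters GTCTGG were distributed the other way, in 30.5% of lung-higher, 14.1% of LI-higher and 17.8% of all. With regions called after the GC trends were removed, the shares were 32.8% and 17.7% for AP-1 and 15.1% and 26.7% for SMAD in LI-higher and lung-higher regions. Windows with 3 or more SMAD matches, like the Galnt4 array, were 13 of the lung-higher (1.06%), 3 of the LI-higher (0.0767%) and 76 of all regions (0.188%). Windows with 3 or more AP-1 matches, like the Gata3 array, were 1 (0.0812%), 48 (1.23%) and 115 (0.284%) of these sets. GATA letters (AGATAA) stood in 28.5% of lung-higher and 22.7% of LI-higher regions, both above the 19.8% of all regions, and RUNX letters (AACCACA) in 17.6% and 20.4% against 15.1%. NR4A letters (AAAGGTCA) stood in 1.62% of lung-higher and 6.01% of LI-higher regions, against 2.22% of all. ROR letters (TAGGTCA), which share AGGTCA with them, stood in 4.14% and 5.83%, both above the 3.65% of all regions. T-box letters (AGGTGTGA) stood in 0.89% and 2.89% against 1.41%, and STAT letters (TTCNNNGAA) in 6.26% and 10.7% against 8.45%. The AHR letters TTGCGTG were rare, in 0.49% and 1.25% against 1.10% of all. Both strands were searched, and at promoters the AP-1 and SMAD letters stood in 4.74% and 18.4%. These shares carry no test, and neighbouring regions are not independent.

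**Figure D5:**
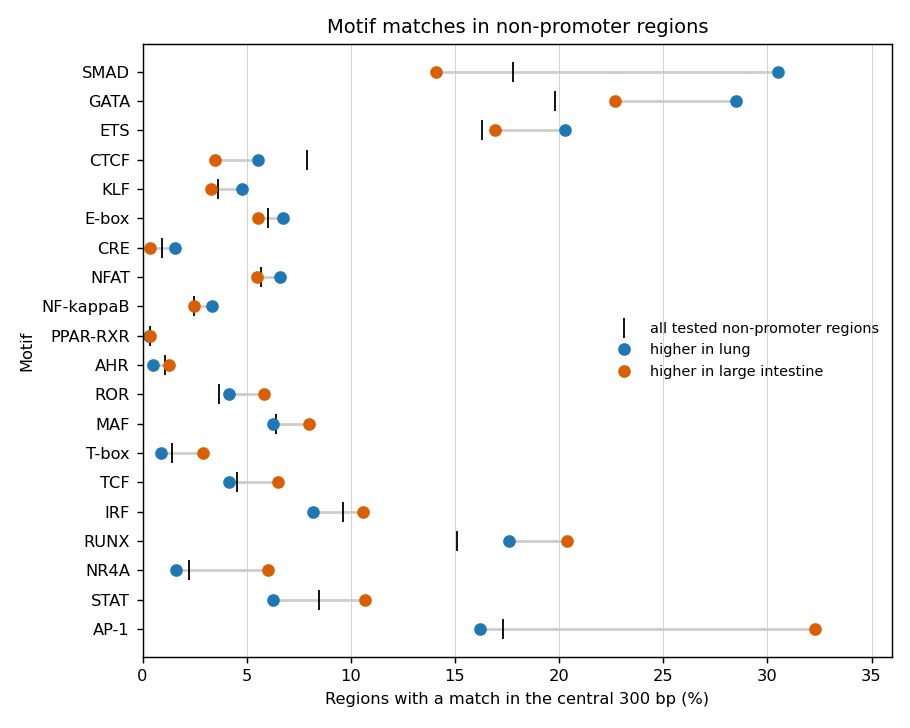
Share of non-promoter regions that hold each motif in their central 300 bases, in percent, for lung-higher, LI-higher and all tested regions. AP-1 letters are the most separated towards LI (32.3% against 16.2%) and SMAD letters towards lung (30.5% against 14.1%).

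The pancreas and small intestine (SI) libraries share no library with the comparison above and were set against each other in the same fit. SI ILC2s were sorted with another gate, by Thy1 and KLRG1, so that this contrast holds a difference in gate as well as in tissue. Over all regions 12.0% were higher in pancreas and 8.45% higher in SI. Of the 1359 lung-higher regions, 647 (47.6%) were higher in pancreas and 53 (3.9%) higher in SI. Of the 4088 LI-higher regions, 1129 (27.6%) were higher in SI and 526 (12.9%) higher in pancreas. The median log2 fold change of pancreas over SI was 0.80 in the lung-higher, −0.34 in the LI-higher and −0.06 in all regions. In the lung-higher regions the median level was 16.3 and 18.3 CPM in lung, 11.5 and 11.2 CPM in pancreas and 5.49 and 5.92 CPM in SI. With library size alone, 26.1% of lung-higher regions were higher in pancreas (8.68% over all regions) and 41.2% of LI-higher regions higher in SI (17.0% over all).

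Single loci followed either pattern. The Ahr intron 2 region had 1.12 and 1.40 CPM in pancreas and 6.26 and 10.2 CPM in SI (log2 fold change of pancreas over SI −2.73, adjusted p = 0.000171), so that both intestinal tissues stood above the others. The Il1rl1 region 8.22 kb upstream had 5.12 and 3.34 CPM in pancreas against 0.818 and 0.314 CPM in SI (2.98, adjusted p = 0.000786), and the Tcim region 5.77 and 6.58 CPM against 1.20 and 0.557 CPM (2.84, adjusted p = 4.27e-05). The Gata3 array did not follow LI, with 8.13 and 9.49 CPM in pancreas and 3.27 and 3.07 CPM in SI (1.47, adjusted p = 0.00437). At the Ctla4 region the pancreas had 1.00 and 3.45 CPM and SI 1.69 and 1.22 CPM, where the tissues overlapped and LI stood above both.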

How the data were processed

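Accessibility was measured by ATAC-seq, and 4 libraries (lung and LI, 2 each) were compared. Per the submitters' processing notes and the methods of the study, reads were mapped to mm10 with Bowtie2 2.2.9, uniquely mapped reads were kept, peaks were called with MACS2 2.1.1, and peaks shared by the replicates of each tissue were merged with HOMER. SAMtools 1.8 and FastQC 0.11.9 are also named. The authors deposited raw read counts per merged region, made with bedtools, without normalization. Removal of duplicates, a Tn5 shift and a blacklist are not given in the sources used here, so repeats can hold unfiltered reads.

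Regions with at least 1 count over the 10 libraries were fitted with edgeR 4.0.16 (R 4.3.3; TMM, glmQLFit, glmQLFTest, tissue as the only factor, all 10 libraries sharing an estimate of the spread), and p-values were adjusted over the 49981 regions. Levels are TMM-scaled CPM. Classes, nearest genes and distances came from the RefSeq annotation of GRCm38.p6, whose chromosomes hold all 50039 regions. The nearest gene was the same for 76.5% of regions when predicted models were added. Total counts lay between 13290901 and 32797872. The code was tested on simulated data. Python 3.11.15 with pandas 2.3.3 and matplotlib 3.10.9 made the summaries.

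Named regions had both libraries of the higher tissue above both of the other and a mean of at least 5 CPM there. They were the 8 largest differences, the 6 genes with most calls and the 3 largest promoter differences in each direction, the 3 called regions of each list with the largest difference, and all regions of Ikzf3, Ahr, Lgals1, Nrp1, Smad7, Pdcd1, Tnfrsf9, Il5 and Klrk1. For the 3 regions of each list, being called was enough. Other list genes were named after their values were seen, and so were the added sequences. The members and lists were chosen with earlier results of these data known. Alternatives were library size alone, DESeq2 (1.42.0) size factors and fits, removal of trends with GC content and width or with mean level (loess, span 0.3), a replicate block, 4 libraries, thinned counts, other thresholds and a filter at 10 counts, and each library left out. The setting without repeat-rich (over 50% repeat) and extreme-count (mean over 20000) regions and the motif shares after trend removal were added after seeing the data.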

Additional observations from a re-analysis of the deposited data

How the results depend on the processing

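With 2 libraries per tissue, the counts of calls were sensitive to any library. Over the fits without 1 library, in which the lone library is assumed to vary like the other tissues, lung-higher regions numbered 279 to 788 and LI-higher regions 978 to 2645, promoters 8 to 35 and 26 to 118, and the regions that also differed between pancreas and SI 180 to 390 (higher in lung and pancreas) and 309 to 752 (higher in LI and SI). The values for main settings were 1359 and 4088, 128 and 179, and 647 and 1129. Library size alone gave 3401 lung-higher regions and 697 and 102 promoters. Removal of the GC and width trends gave 2439 lung-higher regions, 1016 of them higher in pancreas, and with the replicate block added 2482 and 1031. On 4 libraries, edgeR gave 3121 lung-higher regions, 809 and 276 promoters and 979 regions also higher in pancreas, and DESeq2 gave 2793 lung-higher regions and 715 lung-higher promoters; the contrast of pancreas and SI stayed that of the 10 libraries. DESeq2 on 10 libraries gave 258 lung-higher promoters. At an adjusted p under 0.01 the counts were 529 and 1830 regions, 22 and 65 promoters, and 255 and 378 regions shared with pancreas or SI. At an unadjusted p under 0.05 they were 4398 and 8283, 1003 and 484, and 1607 and 2580. With an absolute log2 fold change above 1, 40 promoters were lung-higher, and with promoters reaching 1000 bp downstream 271 were LI-higher. The cause of these shifts was not tested. Counts thinned to the smallest library, DESeq2 size factors and the removal of repeat-rich regions moved none of the 6 counts by over 1.5 times, and the filter at 10 counts removed no region.

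The labels number the libraries of each tissue, and the fit with the replicate block gave 1454 and 4339 regions, 138 and 192 promoters, and 678 and 1202 shared regions. Deviations of same-numbered lung and LI libraries had a correlation over regions of 0.155, but with 2 pairs the libraries share only a number. Of the 89 named regions that were called, 87 were called with library size alone, 85 with the GC trends removed, 85 with the mean count trend removed and 58 without lung replicate 2. Signs were followed for these called regions and for the uncalled promoters of the genes named by the rule, and not for other uncalled regions. Under these settings the sign turned at uncalled promoters, those of Lgals1 (−0.04 with thinned counts, −0.05 to 0.22 over the fits without 1 library), Pdcd1 (−0.06 to 0.60 over those fits), Tnfrsf9 (0.21 with library size alone, 0.19 with the GC trends removed, 0.20 with the block added and −0.19 to 0.16 over those fits) and Il5 (−0.18 to 0.57 over those fits at the region 0.81 kb upstream, and at the other 0.11 with library size alone, 0.07 with the mean count trend removed, 0.29 with the GC trends removed, 0.28 with the block added and −0.52 to 0.17 over those fits).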
